A study of Mus musculus with 8 samples.

Results

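Immediate early genes are the genes that a cell switches on within minutes of a growth signal. Here 10 of them were followed in serum-deprived mouse embryonic stem cells with or without a compound aimed at 1 paralog of glycogen synthase kinase 3 (GSK3). They are Egr1, Fos, Fosb, Jun, Junb, Ier2, Ier3, Btg2, Klf10 and Arc, chosen by name from the 48321 genes of the deposited table, of which 17488 had values. The choice was made with earlier results of these data known. Shares of members called are therefore set beside those of all genes as description, not as a test. All 10 had values, and 9 were among the 13959 genes tested. Fosb lay below the minimum mean value of 1 and is described only.

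The samples fall into 4 groups of 2 RNA libraries each, all from E14 cells, an embryonic stem cell line of strain 129/Ola. In the GSK3β line the gene of GSK3β was knocked out and a GSK3β-L132G transgene was present, and cells had either 5 µM 3MB-PP1 for 2 h or no treatment. In the GSK3α line the gene of GSK3α was knocked out and a GSK3α-L195G transgene was present, again with 5 µM 3MB-PP1 for 2 h or with no treatment. Such changes enlarge the ATP pocket of a kinase, which lets it be blocked by bulky compounds such as 3MB-PP1. All cells had 6 h in serum-free N2B27 medium. No serum-fed sample was analysed here, so the levels are those after withdrawal and not an effect of it. The labels name no vehicle for the untreated cells, no promoter for the transgenes and no time of harvest, so total time without serum and inhibitor cannot be told apart. Each paralog stands for 1 line, and no line without a mutant kinase was analysed here. Effects of 3MB-PP1 on the mutant kinase and on other targets thus cannot be told apart. The labels do not say whether replicates were separate cultures. The p-values therefore measure the spread between these libraries, which may be technical.

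Immediate early genes are transcribed without new protein synthesis. Growth factors reach them mainly through the ERK kinases, which act on serum response factor (SRF) and its ternary complex partners, and through the cyclic AMP response element (CRE) and its binding protein CREB. Many of their products are transcription factors, among them the FOS and JUN proteins that pair as AP-1, and their RNAs are short-lived because AU-rich elements mark them for decay. GSK3 is known to phosphorylate JUN near its DNA-binding domain, a step that RNA levels do not show.

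The libraries held an estimated 21.5 to 32.4 M reads assigned to genes, and the libraries of each group had r = 0.998 across genes, which are not independent replicates. Values are the authors' estimated gene counts after a scaling that gave all libraries the same upper quartile, and 1 read was worth a value of 0.0287 to 0.0445. Gsk3a averaged 78.8 ± 1.62 (SD, n = 2) and 77.0 ± 1.21 in treated and untreated GSK3β cells and 141 ± 0.253 and 158 ± 3.31 in treated and untreated GSK3α cells. Gsk3b averaged 253, 245, 54.0 and 56.5 in the same order of groups, so RNA of the transgene's paralog was the higher one in each line. All 10 listed embryonic stem cell markers had values, with sums of 6549 to 6737 over the 8 libraries. Of 8 fibroblast markers 4 had values, summing to 11.3 to 16.1, and Col3a1, Postn, Dcn and Lum had none. Primitive endoderm markers (6 of 8 with values, Foxa2 and Afp with none) summed to 10.3 to 12.1, and trophoblast markers (7 of 8, Elf5 with none) to 62.9 to 76.9.

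The members spanned a wide range of levels, which are compared here as deposited value per kilobase of exon. Exon length takes all annotated exons of a gene together, whichever transcript is expressed, so close places in the order may depend on that choice. In the GSK3β line with inhibitor, Ier2 stood at the top with 45.4 ± 0.0561 per kilobase (SD, n = 2). Btg2 had 24.7 ± 1.01, Klf10 23.5 ± 0.846, Arc 5.07 ± 0.159, Junb 3.43 ± 0.272, Ier3 2.58 ± 0.0110, Jun 1.57 ± 0.161, Fos 0.788 ± 0.0953, Egr1 0.305 ± 0.00490 and Fosb 0.0451 ± 0.0247. The order was the same in untreated GSK3β cells. In both GSK3α groups it differed only in that Ier3 lay above Junb, at 5.38 ± 0.765 against 4.23 ± 0.101 per kilobase with inhibitor and at 5.61 ± 0.529 against 4.94 ± 0.0899 without. Neighbours in the order were separated in both libraries of every group, except that Btg2 (23.98 to 25.4) and Klf10 (22.9 to 24.1) overlapped in treated GSK3β cells. The factors used most often as readouts of serum induction, Fos, Fosb and Egr1, were thus the 3 lowest of the 10 on this scale in every group.

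**Figure D1:**
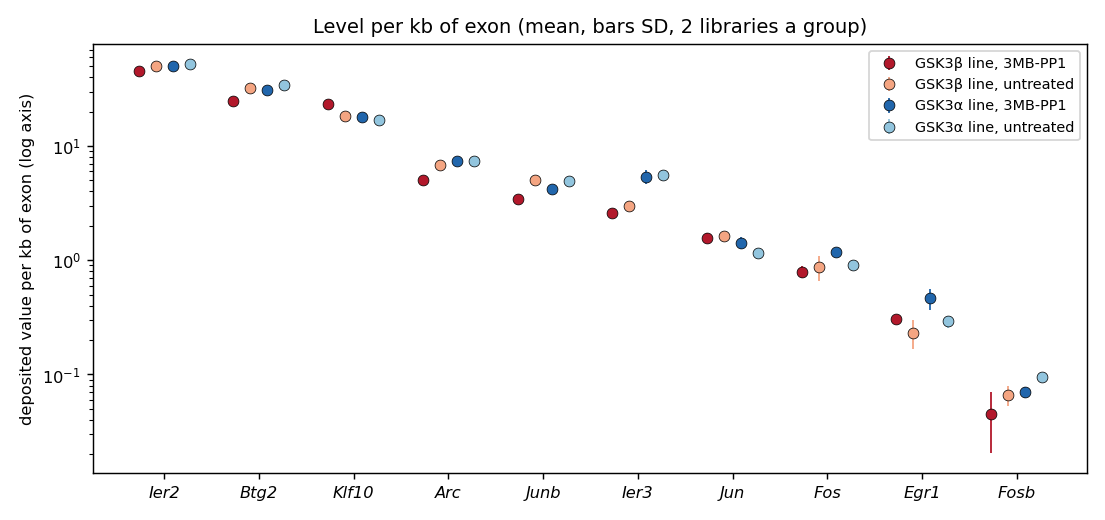
Level of each immediate early gene as deposited value per kilobase of exon (log axis) in the 4 groups, with points for the mean of 2 libraries and bars for the SD. The libraries of Ier2, Btg2 and Klf10 lie between 16.8 and 52.6, and Fos, Egr1 and Fosb are the 3 lowest in every group.

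Few reads lay behind those 3 genes. Egr1, a zinc-finger factor, had 46 and 47 estimated reads in treated and 32 and 26 in untreated GSK3β cells, and 65 and 49 in treated and 32 and 28 in untreated GSK3α cells. Fosb had 13 and 6 in treated and 12 and 11 in untreated GSK3β cells, and 11 and 13 in treated and 14 and 13 in untreated GSK3α cells. Summed over a group, Fosb gave 19 reads in treated GSK3β cells (exact 95% Poisson interval 11.4 to 29.7) and 23 (14.6 to 34.5) in untreated ones, and 24 (15.4 to 35.7) in treated and 27 (17.8 to 39.3) in untreated GSK3α cells. The groups differed in depth, so these sums are not compared with each other. Intervals of this kind cover counting error only, since reads without molecular identifiers are not independent molecules.

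Promoters are shown for Btg2 and Junb, whose RNA was lower with inhibitor in the GSK3β line, and for Fos, the best-known serum-induced gene, which did not pass the test. RefSeq promoter records (GRCm38.p6) matched 6 of the 10 members, namely Btg2, Fos, Fosb, Ier3, Jun and Junb. Each sequence is the 250 bases before the annotated start, 5′ to 3′ on the strand of the gene, and capitals mark the CRE core TGACG on either strand, where its copies may overlap. Btg2 is at chr1:134079156-134079405 (minus strand), Junb at chr8:84978749-84978998 (minus strand) and Fos at chr12:85473640-85473889 (plus strand).
Btg2: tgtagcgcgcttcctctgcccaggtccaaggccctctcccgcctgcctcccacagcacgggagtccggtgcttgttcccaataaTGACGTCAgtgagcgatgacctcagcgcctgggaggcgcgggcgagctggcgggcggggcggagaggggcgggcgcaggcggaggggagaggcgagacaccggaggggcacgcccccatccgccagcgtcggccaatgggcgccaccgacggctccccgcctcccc
Junb: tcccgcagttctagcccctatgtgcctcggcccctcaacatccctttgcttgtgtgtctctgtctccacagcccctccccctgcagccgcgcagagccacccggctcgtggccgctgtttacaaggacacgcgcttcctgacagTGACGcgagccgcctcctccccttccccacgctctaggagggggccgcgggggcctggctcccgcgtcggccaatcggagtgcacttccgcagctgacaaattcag
Fos: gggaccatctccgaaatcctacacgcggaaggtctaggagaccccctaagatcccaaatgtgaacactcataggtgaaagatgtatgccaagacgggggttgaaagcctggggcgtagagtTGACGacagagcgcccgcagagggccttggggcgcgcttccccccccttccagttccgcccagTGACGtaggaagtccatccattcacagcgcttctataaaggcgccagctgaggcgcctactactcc
The core TGACG was found in 4 of the 6 promoters (Btg2, Fosb, Fos and Junb), against 17.8% of 32851 RefSeq promoters of this length. In Btg2 it formed the full palindrome TGACGTCA, from -166 to -159 relative to the start, which 1.55% of promoters hold. Junb had the core at -106 and Fos at -129 and -66, with a TATAAA motif at -33 in Fos (12.4% of promoters). The GC box GGGCGG was found on either strand in 5 of the 6, against 32.7%, and overlapped another copy of itself in Btg2 and Fosb. The EGR motif GCGNGGGCG was found in 2 (Btg2 and Fosb), against 4.7%. The CArG box, the motif of SRF, and the AP-1 motif TGANTCA were found in 0 of the 6 windows, against 1.47% and 6.75% of all promoters. A match describes the letters only, and the absence of one says nothing about a factor at more distant sites.

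The comparison of 3MB-PP1 with no treatment in the GSK3β line asks which members differed after 2 h of the compound. Junb, Arc, Btg2 and Ier2 fell and Klf10 rose, with a change of the mean of -8.75% to -32.6% for those that fell and of 27.4% for Klf10. Egr1, Fos, Jun and Ier3 did not pass the test. Of the 9 members tested 5 were called, 1 higher and 4 lower (limma-trend on log2(value + 1), Benjamini-Hochberg adjusted p under 0.05 over all tested genes). Over all genes tested, 14.9% were called in this comparison, 7.49% higher and 7.44% lower. The median log2 change was -0.13 over the members and -0.01 over all genes tested. Fewer cells of a kind and less RNA per cell cannot be told apart in such bulk samples.

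Among the AP-1 subunits, Junb (chr8:84974484-84978718, minus strand, mm10 as all gene positions here) encodes a JUN protein that often restrains JUN in transcription. It had values of 7.45 and 8.33 in treated GSK3β cells and 11.3 and 12.1 in untreated ones. The groups did not overlap, and the log2 change was -0.52 ± 0.08 (SE, 95% interval -0.69 to -0.35, adjusted p = 0.000218). Junb shares 173 exonic bases, 7.52% of its exon length, with Prdx2 on the opposite strand, and no source used here gives the strand setting of the counting. Prdx2, a peroxiredoxin named after its values were seen, averaged 244 ± 3.21 in treated and 258 ± 3.22 in untreated GSK3β cells, which gave -0.08 on the log2 scale (adjusted p = 0.109).

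Jun and Fos themselves did not pass. Jun (chr4:95049034-95052222, minus strand), the main partner of FOS proteins, had 4.64 and 5.37 in treated and 5.15 and 5.22 in untreated GSK3β cells, with the groups overlapping. Its log2 change was -0.05, with a 95% interval of -0.28 to 0.19 (adjusted p = 0.837). Jun shares 232 exonic bases (7.28% of its exon length) with its antisense gene Junos, which is listed without values. Its estimated reads fell within 0.1 of a whole number in 2 of 8 libraries, against 8 of 8 for each other member. The reason was not tested. Fos (chr12:85473890-85477273, plus strand) had 2.01 and 1.69 in treated and 2.42 and 1.70 in untreated GSK3β cells, again overlapping, and its log2 change was -0.09 with an interval of -0.38 to 0.19 (adjusted p = 0.709). Fosb (chr7:19302696-19310051, minus strand), a second FOS protein, had 0.390 and 0.172 in treated and 0.469 and 0.353 in untreated GSK3β cells, which overlapped. Fitted without the filter on low values it had a log2 change of -0.14 ± 0.13 (adjusted p = 0.553). Egr1 had 1.38 and 1.35 in treated and 1.25 and 0.833 in untreated GSK3β cells, higher in both treated libraries, but the change of 0.22 ± 0.15 (SE) had an interval of -0.09 to 0.53 and did not pass (adjusted p = 0.357).

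Of the members that are not AP-1 factors, Btg2 (chr1:134075170-134079120, minus strand) is an antiproliferative protein that brings the CCR4-NOT deadenylase to RNAs. It had 65.8 and 69.7 in treated and 90.5 and 87.6 in untreated GSK3β cells, without overlap. Its log2 change was -0.39 ± 0.04 (SE, adjusted p = 7.85e-07), and its mean fell by 23.9%. Arc (chr15:74669083-74672570, minus strand), known in neurons for its role at synapses, had 15.9 and 15.2 in treated and 21.1 and 20.9 in untreated GSK3β cells. These did not overlap either, and the log2 change was -0.42 ± 0.06 (adjusted p = 0.000187).

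Klf10 (chr15:38291463-38300706, minus strand), a zinc-finger repressor first described as an early response gene of transforming growth factor β, was the only member called higher. It had 101 and 95.9 in treated and 75.4 and 79.0 in untreated GSK3β cells, with no overlap. The log2 change was 0.35 ± 0.04 (SE, 95% interval 0.26 to 0.43, adjusted p = 6.76e-06), a mean higher by 27.4%. Ier2 (chr8:84661331-84662852, minus strand), a nuclear protein, had 69.1 and 69.0 in treated and 76.5 and 74.9 in untreated GSK3β cells. These did not overlap, and the log2 change was -0.13 ± 0.04 (adjusted p = 0.0295). The Ier2 call ended when untreated replicate 1, treated replicate 1 or treated replicate 2 of the line was left out, with adjusted p of 0.153, 0.157 and 0.125, and without the trend on the mean (0.130). Ier3 (chr17:35821684-35822923, plus strand), a stress-induced regulator of cell survival, had 2.91 and 2.93 in treated and 3.64 and 3.14 in untreated GSK3β cells. Its treated libraries were the lower ones, but the change of -0.16 (95% interval -0.40 to 0.08) did not pass (adjusted p = 0.389).

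In all, 7 of the 9 tested members had libraries that did not overlap between treated and untreated GSK3β cells, 2 higher and 5 lower. Over all tested genes that held for 57.3%, 27.3% higher and 30% lower. Tubb3, a neuronal tubulin, averaged 179 in treated and 125 in untreated GSK3β cells, and 125 in treated and 113 in untreated GSK3α cells. Nes, an intermediate filament of neural progenitors, averaged 32.3 in treated and 22.3 in untreated GSK3β cells, and 21.6 in treated and 22.0 in untreated GSK3α cells. The other neural markers with values were low, with 3.32 in treated and 4.24 in untreated GSK3β cells for Sox1, 3.22 and 3.21 for Pax6, and 0.262 and 0.333 for Zic1. Cdx2, a trophoblast marker, averaged 2.85 in treated and 0.258 in untreated GSK3β cells, and 0.511 in treated and 0.349 in untreated GSK3α cells. Among other trophoblast markers, Krt8 averaged 38.3 in treated and 41.6 in untreated GSK3β cells, Krt18 15.65 and 16.05, and Ascl2 2.14 and 2.16. Eomes averaged 13.3 and 11.6, Hand1 1.47 and 1.17, and Tfap2a 2.32 and 2.28 in the same order. The trophoblast list summed to 75.2 to 76.9 in treated and 74.5 to 75.6 in untreated GSK3β libraries, which overlapped. The means of Tubb3, Nes and Cdx2 were thus higher with inhibitor in the GSK3β line, and the part of these markers in the members' changes was not tested.

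**Figure D2:**
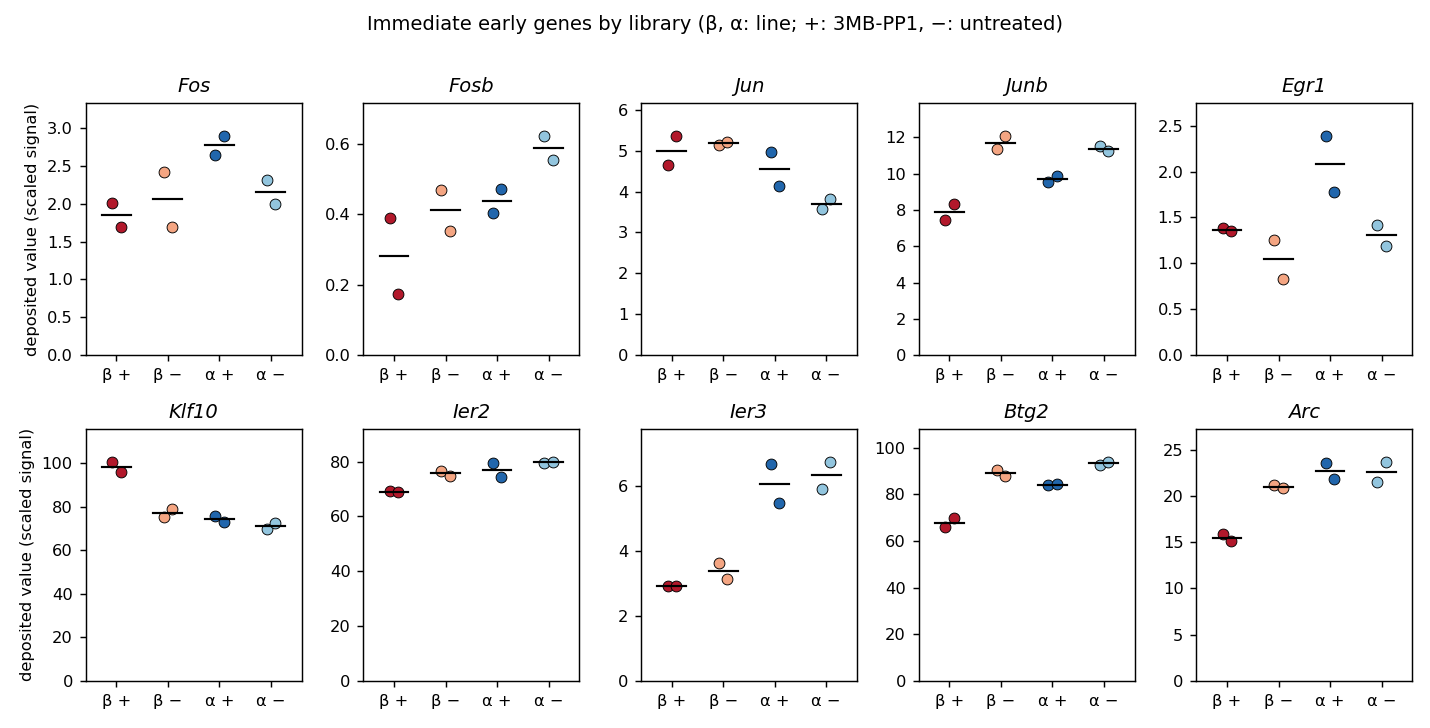
Deposited value of each of the 10 immediate early genes in every library, a panel per gene, with points for the 2 libraries of each group and the group mean as a line. Junb, Arc and Btg2 are lower and Klf10 is higher in both treated GSK3β libraries than in the other 6 libraries, and Ier3 is lower in all 4 GSK3β libraries than in all 4 GSK3α libraries.

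The same comparison in the GSK3α line asks which members differed there after 2 h of the compound. With limma-trend, 0 of the 9 members were called, and 4 had an unadjusted p under 0.05. Voom weights and limma without the trend also called 0, each again with 4 at an unadjusted p under 0.05. Few of all genes were called without the trend in this line, so that 0 adds little. With limma-trend, 0.881% of all genes tested were called in this line, 0.265% higher and 0.616% lower. The median log2 change was 0.01 for the members as for all genes. The intervals still allow changes of some size, so a missed threshold does not show that these genes stayed the same.

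Btg2 came nearest to the threshold. It had 84.0 and 84.2 in treated and 92.6 and 94.0 in untreated GSK3α cells, without overlap, and a log2 change of -0.15 ± 0.04 (SE, 95% interval -0.23 to -0.07, adjusted p = 0.0775). With the GSK3α libraries alone the adjusted p was 0.0456. Without replicate 1 or 2 of the untreated GSK3β cells, which enter only the estimate of spread, it was 0.0482 and 0.0486. Junb had 9.56 and 9.89 in treated and 11.5 and 11.2 in untreated GSK3α cells, again apart, with a change of -0.21 ± 0.08 (adjusted p = 0.310).

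Egr1, Fos, Jun and Klf10 had higher values in both treated libraries, none of them past the threshold. Egr1 had 2.39 and 1.77 in treated and 1.42 and 1.19 in untreated GSK3α cells, a mean 59.3% higher and apart from them, with a log2 change of 0.41 ± 0.15 (95% interval 0.10 to 0.72, adjusted p = 0.252). Fos had 2.65 and 2.90 in treated and 2.31 and 2.00 in untreated GSK3α cells, also apart, with a change of 0.26 (interval -0.03 to 0.55, adjusted p = 0.484). Jun had 4.96 and 4.15 in treated and 3.59 and 3.83 in untreated GSK3α cells, with a change of 0.24 (interval 0.01 to 0.47, adjusted p = 0.409). In summed reads Egr1 had 114 (exact 95% Poisson interval 94.0 to 137) in treated and 60 (45.8 to 77.2) in untreated GSK3α cells, at unequal depth. Klf10 had 75.8 and 73.1 in treated and 70.1 and 72.5 in untreated GSK3α cells, with a change of 0.06 (interval -0.02 to 0.15, adjusted p = 0.592).

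Arc, Ier2, Ier3 and Fosb are given last. Arc had 23.6 and 21.9 in treated and 21.5 and 23.7 in untreated GSK3α cells, which overlapped, and a log2 change of 0.01 (95% interval -0.13 to 0.14, adjusted p = 0.982). Ier2 had 79.4 and 74.3 in treated and 79.5 and 80.0 in untreated GSK3α cells, a change of -0.05 (adjusted p = 0.630). Ier3 had 6.69 and 5.47 in treated and 5.92 and 6.76 in untreated GSK3α cells, overlapping, with a change of -0.05 (adjusted p = 0.900). Fosb had 0.405 and 0.471 in treated and 0.623 and 0.553 in untreated GSK3α cells, which is lower in both treated libraries. Fitted without the filter on low values, its log2 change was -0.14 ± 0.13 (SE, adjusted p = 0.755). Of the 9 tested members, 7 had libraries that did not overlap, 4 higher and 3 lower, where 42% of all tested genes had none, 23% higher and 19% lower.

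Whether the response differed between the lines was tested as the change in the GSK3β line minus that in the GSK3α line. Klf10 differed by 0.28 ± 0.06 (SE, log2, 95% interval 0.16 to 0.40, adjusted p = 0.00480). Arc differed by -0.42 ± 0.09 (interval -0.61 to -0.23, adjusted p = 0.00880) and Btg2 by -0.24 ± 0.05 (interval -0.35 to -0.13, adjusted p = 0.0102). These 3 of 9 members, 1 higher and 2 lower, stand against 6.53% of all tested genes, 3.62% higher and 2.9% lower. Junb, the member with the lowest log2 change in the GSK3β line, was not shown to differ between the lines, with -0.31 ± 0.12 (interval -0.55 to -0.07, adjusted p = 0.121). The others did not pass either, with -0.35 for Fos, -0.28 for Jun, -0.19 for Egr1, -0.11 for Ier3 and -0.08 for Ier2 (adjusted p 0.317 to 0.777). The Arc call ended without treated GSK3α replicate 1 (adjusted p = 0.0653), and those of Btg2 and Klf10 without treated GSK3β replicate 1 (0.0916 and 0.0513). All 3 ended when the spread was estimated without a trend on the mean, at 0.0844 for Arc, 0.127 for Btg2 and 0.113 for Klf10.

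**Figure D3:**
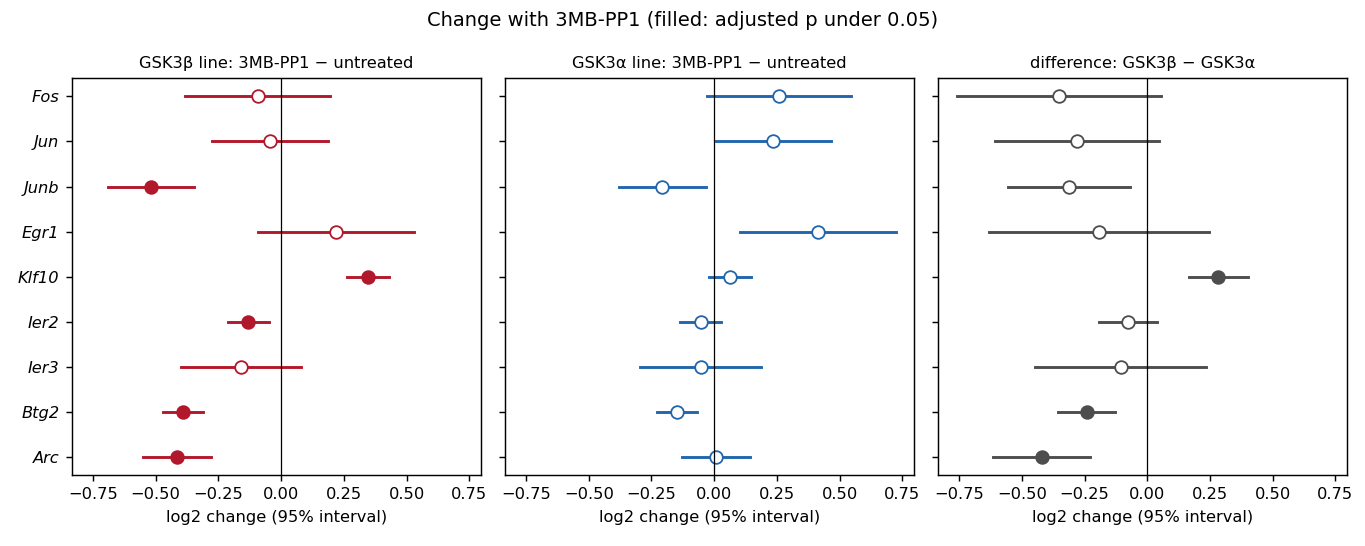
Log2 change with 3MB-PP1 of each tested immediate early gene in the GSK3β and the GSK3α line, and the difference between the lines in a panel of its own, with 95% intervals of the limma fit and filled points past the threshold. The intervals of Klf10, Arc, Btg2, Junb and Ier2 lie clear of 0 in the GSK3β line, and Arc is at 0.01 in the GSK3α line.

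Averaged over both lines, Btg2 had a log2 change of -0.27 ± 0.04 (SE, adjusted p = 0.0108) and Junb of -0.36 ± 0.07 (adjusted p = 0.0279). Both values were lower in the treated libraries of each line, and these 2 of 9, both lower, stand against 1.73% of all tested genes, 0.659% higher and 1.07% lower. Egr1, with higher treated values in both lines, had 0.32 ± 0.11 and did not pass. Leaving out any 1 GSK3β library ended the Junb call (adjusted p 0.0759 to 0.118). The Btg2 call ended without untreated GSK3β replicate 2 (0.0667) or treated GSK3β replicate 2 (0.0536), and without the trend neither call held (0.114 for Btg2 and 0.104 for Junb). Klf10 did not pass (adjusted p = 0.0638) but did so without replicate 2 of untreated or of treated GSK3α cells (0.0376 and 0.0450).

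The untreated lines were compared with each other, which shows the members after serum withdrawal without inhibitor. Ier3 was lower in the GSK3β line, with 3.64 and 3.14 against 5.92 and 6.76 in the GSK3α line, and a log2 difference of -0.74 ± 0.11 (SE, 95% interval -0.98 to -0.50, adjusted p = 3.28e-05). Jun was higher in the GSK3β line, with 5.15 and 5.22 against 3.59 and 3.83, a difference of 0.39 ± 0.11 (interval 0.16 to 0.62, adjusted p = 0.00633). Klf10 was higher by 0.11 ± 0.04, at 77.2 ± 2.57 in the GSK3β line and 71.3 ± 1.74 in the GSK3α line (SD, n = 2, adjusted p = 0.0256). The groups did not overlap for any of these. The 3 of 9 members called, 2 higher and 1 lower, stand against 48.2% of all tested genes, 22.3% higher and 25.9% lower. Libraries did not overlap for 6 of the 9, 2 higher and 4 lower, against 72.2% of all tested genes, 33.5% higher and 38.7% lower.

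Ier2, Btg2, Arc, Egr1, Fos and Junb did not pass between the untreated lines, with log2 differences of -0.18 to 0.04 and adjusted p of 0.122 to 0.778. The Klf10 call ended without replicate 1 of the untreated GSK3α cells (adjusted p = 0.151), without replicate 2 of the untreated GSK3β cells (0.175), with the libraries of the comparison alone (0.0509) and without the trend (0.101). With a pseudocount of 5 the differences of Ier3 and Jun were -0.43 and 0.23, still past the threshold. Ier3 lay lower in the GSK3β line whether treated or not, with 2.92 ± 0.0124 in treated GSK3β and 6.08 ± 0.865 in treated GSK3α cells (SD, n = 2).

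The wider set of immediate early genes moved in both directions. Of 30 others listed, 26 had values (Egr2, Egr3, Nr4a3 and Npas4 had none) and 24 were tested. In the GSK3β line 2 rose and 8 fell, with a median log2 change of -0.16, where 7.49% of all tested genes rose and 7.44% fell. Sgk1, a serum- and glucocorticoid-induced kinase, averaged 202 ± 4.96 (SD, n = 2) in treated and 110 ± 5.57 in untreated GSK3β cells, a change of 0.87 (adjusted p = 1.67e-11). Klf4, a pluripotency factor that also stands among the stem cell markers, averaged 193 ± 5.47 in treated and 128 ± 0.0962 in untreated GSK3β cells, a change of 0.59 (adjusted p = 5.04e-10). Myc, a growth-promoting factor, averaged 20.1 ± 0.0352 in treated and 37.3 ± 0.189 in untreated GSK3β cells, and its log2 change was -0.86 (adjusted p = 4.79e-08). Mcl1, a survival factor, fell by 0.31 on the log2 scale (adjusted p = 1.14e-06).

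In the GSK3α line 1 of these 24 rose and 2 fell, with a median of -0.05, where 0.265% of all tested genes rose and 0.616% fell. Without the trend these 3 calls ended (adjusted p = 0.224 each). Myc averaged 27.2 ± 1.26 in treated and 38.4 ± 5.18 in untreated GSK3α cells, a log2 change of -0.48 (adjusted p = 0.00154), a call that ended without treated replicate 1 of this line (0.0717). Pim1, a survival kinase, fell by 0.21 (adjusted p = 0.00563), which ended without treated replicate 1 (0.130) or 2 (0.0742). Nfkbia, the inhibitor of NF-κB, rose by 0.23 (adjusted p = 0.0264), which ended without any 1 library of the line (0.0780 to 0.235). The response differed between the lines for 6 of the 24, against 6.53% of all tested genes, among them Sgk1 (0.95, adjusted p = 4.88e-09), Klf4 (0.53, 6.16e-07), Klf6 (-0.53, 0.000153) and Mcl1 (-0.22, 0.00439). Without the trend the calls of Klf6 and Mcl1 ended (0.0565 and 0.143).

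**Figure D4:**
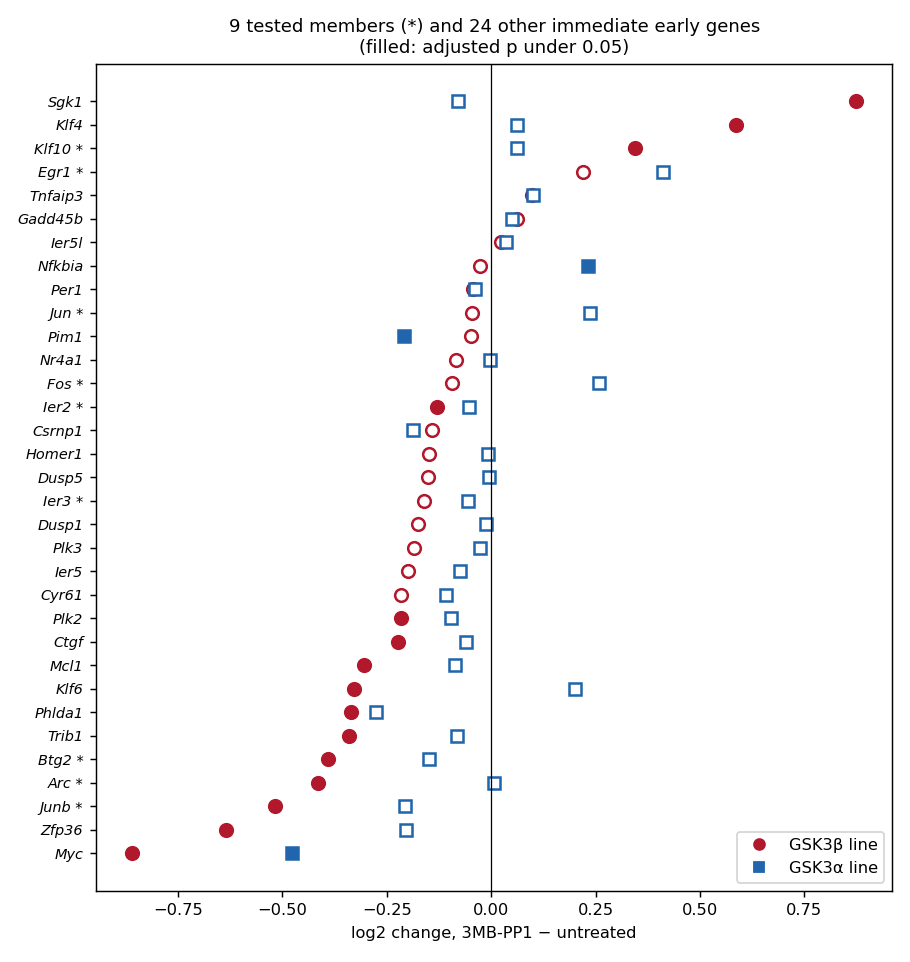
Log2 change with 3MB-PP1 of the tested members and of the other tested immediate early genes, as circles for the GSK3β and squares for the GSK3α line, with filled points for genes past the limma threshold. In the GSK3β line Sgk1 at 0.87 lies at the upper end and Myc at -0.86 at the lower end.

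Partners of the FOS and JUN proteins were looked at next. Of 13 listed AP-1 family partners 11 had values and 9 were tested. In the GSK3β line 2 rose and 1 fell, beside 14.9% of all tested genes called in either direction. Atf3, a stress-induced repressor, averaged 5.88 ± 0.765 in treated and 3.42 ± 0.468 in untreated GSK3β cells (log2 change 0.64, adjusted p = 0.00101), which was 0.37 with a pseudocount of 5. Mafg, a small MAF protein, rose by 0.18 (adjusted p = 0.00271), a call that ended without treated replicate 1 (0.0610). Jund, the JUN protein of resting cells, averaged 44.0 ± 0.526 in treated and 51.6 ± 2.01 in untreated GSK3β cells (log2 change -0.22, adjusted p = 0.00135). In the GSK3α line, where 0.881% of all tested genes were called, limma called 0 of the 9. There 2 had an unadjusted p under 0.05, and 0 were called with voom weights or without the trend. Few of all genes were called without the trend in that line, so that 0 adds little. The largest value there was 0.40 for Jdp2 (adjusted p = 0.113).

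The factors that read the serum signal at these genes did not pass in either line, which does not show that they stayed the same. Of 14 SRF, TCF and CREB factors, limma called 0 in the GSK3β and 0 in the GSK3α line. The shares of all tested genes called there were 14.9% and 0.881%. Of the 14 factors, 3 and 1 had an unadjusted p under 0.05. Voom weights and limma without the trend also called 0 in both. Few of all genes were called without the trend in the GSK3α line, so that 0 adds little. The largest changes in the GSK3β line were 0.24 for Elk3 (adjusted p = 0.135), a ternary complex factor, and 0.24 for Crtc1 (0.0571), a CREB coactivator. Between the untreated lines 3 of the 14 were higher and 2 lower in the GSK3β line, where 22.3% of all tested genes were higher and 25.9% lower. Srf averaged 42.5 ± 0.847 in untreated GSK3β and 31.3 ± 0.594 in untreated GSK3α cells, a log2 difference of 0.43 (adjusted p = 4.25e-07). Elk3 went the other way, with 4.32 ± 0.0311 in untreated GSK3β and 7.01 ± 0.608 in untreated GSK3α cells (-0.59, adjusted p = 0.000140). Creb1 differed by 0.19 (adjusted p = 0.00355) and Ep300 by -0.11 (0.0147, and 0.194 with voom weights). Of 18 genes of the MAP kinase relay, 1 rose and 2 fell in the GSK3β line, where 7.49% of all tested genes rose and 7.44% fell. Mapk3, which encodes ERK1, averaged 49.2 ± 1.87 in treated and 57.2 ± 0.280 in untreated GSK3β cells (log2 change -0.21, adjusted p = 0.00157), and its change differed from that in the GSK3α line by -0.29 (adjusted p = 0.00586, and 0.0813 without the trend). In the GSK3α line, where 0.265% of all tested genes rose, 1 of the 18 rose, Rps6ka4, with a log2 change of 0.35 (adjusted p = 0.0225). That call ended without untreated replicate 2 or either treated replicate of the line (0.161 to 0.199), and without the trend (0.224).

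Other lists held genes that act on the RNAs or with the products of the members. Of 8 AU-rich element binding proteins, 2 fell in the GSK3β line, where 7.44% of all tested genes fell, and 1 in the GSK3α line, where 0.616% did. Zfp36 (tristetraprolin), which promotes decay of such RNAs, averaged 2.74 ± 0.262 in treated and 4.80 ± 0.260 in untreated GSK3β cells (log2 change -0.64, adjusted p = 0.000561), which was -0.34 with a pseudocount of 5. It is also on the list of other immediate early genes, so its fall is in both counts. Its relative Zfp36l2 had a log2 change of -0.29 in the GSK3α line (adjusted p = 0.00297), a call that ended without treated replicate 2 (0.0953) and without the trend (0.224). Of 13 tested BTG, TOB and CCR4-NOT genes, 2 fell in the GSK3β line and 1 in the GSK3α line. Cnot6, a deadenylase subunit, had -0.16 in both (adjusted p = 0.00349 and 0.0304), and the call in the GSK3α line ended in 6 of the 8 fits that left out a library. Without the trend both ended, at 0.0566 in the GSK3β and 0.274 in the GSK3α line. Among 6 relatives and corepressors of Klf10, and for the EGR corepressors Nab1 and Nab2, limma called 0 in either line. At an unadjusted p under 0.05 there were 1 and 0 in each line. Over all tested genes 14.9% were called in the GSK3β line and 0.881% in the GSK3α line, so 0 in lists this short says little. Voom weights and limma without the trend called 0 in these lists too, though few of all genes were called without the trend in the GSK3α line.

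Finally, for each of the 7 members called in any comparison, the genes with the most similar pattern over the 8 libraries were found by Euclidean distance of centred log2 values, among all other tested genes with a mean of at least 5. Junb lay nearest to Skil (0.139), Crebrf (0.141) and Rarg (0.166). Skil averaged 60.2 ± 2.75 (SD, n = 2) in treated and 85.4 ± 2.51 in untreated GSK3β cells, and 72.9 ± 1.75 in treated and 87.4 ± 4.46 in untreated GSK3α cells. Btg2 lay nearest to Msantd2 (0.0902), Stk17b and Phf21a, Arc to Gm19705 (0.139), Crabp2 and Fam110a, and Klf10 to Sparc (0.0803), Echdc2 and Dgat2. Sparc averaged 321 ± 19.1 in treated and 260 ± 15.8 in untreated GSK3β cells, and 250 ± 1.31 in treated and 240 ± 8.38 in untreated GSK3α cells. Ier2 was nearest to Oser1 (0.0664), Ldha and Cnp, Ier3 to Fam162a (0.189), Cirbp and Fam25c, and Jun to Gfod2 (0.153), Dpm3 and Rab15. These are descriptions of 8 libraries and carry no test.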

How the data were processed

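Libraries were made from total RNA with an Illumina TruSeq RNA kit, per the labels' protocols. TopHat2, Partek and the build mm10 are named, per the submitters' processing notes, without their roles. Versions, gene annotation, strand setting and scaling are not given in the sources used here. The deposited values are a signal: the authors' estimated gene counts, with an upper quartile over genes of 46.5 in each of the 8 libraries. With the smallest value of a library taken as 1 read, 63.5 to 67.6% of low values (at most 20 reads) fell within 0.1 of a whole number. Reads were thus not recovered for a count test, which the design had kept for whole-number raw counts. Limma-trend, which the design had named first, was used. Estimated reads per library are its sum over that smallest value.

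Genes with a mean of at least 1 were tested, 13959 of 17488, on log2(value + 1), which understates changes of low genes. The model had 1 mean per group over all 8 libraries (4 residual degrees of freedom), and the average over lines had terms for line and inhibitor (limma 3.58.1 in R 4.3.3, with data.table, version 1.17.8). P-values are two-sided and Benjamini-Hochberg adjusted over all tested genes in each of 5 comparisons, with a threshold of 0.05. The inhibitor comparisons of the lines share no library in their means, but share the estimate of spread from all 8 libraries. The difference, the average and the comparison of untreated lines use libraries of both inhibitor comparisons. The fit was tested on simulated data. Gene positions and exon lengths are from the GENCODE annotation of GRCm38 (mm10), computed with Python 3.11.15 and pandas 2.3.3, and plots with matplotlib 3.10.9.

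The members and gene lists were chosen with earlier results of these data known. The text names the 10 members throughout. Each list gives up to 4 genes of lowest adjusted p past the threshold, otherwise the 2 of largest change. For each member called, the 3 most similar genes are named, and Gsk3a and Gsk3b check the lines. Alternatives were other pseudocounts (0.1 and 5), no filter or a minimum mean of 5, median-ratio scaling, voom weights, no trend, the libraries of a comparison alone, a replicate block, and leaving out each library. The summed level of the neural marker list is not reported here.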

Additional observations from a re-analysis of the deposited data

Results flagged for a closer look

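The log2 change with 3MB-PP1 differed between the lines for 3 members, by the test of the difference itself (limma, adjusted p under 0.05). Arc changed by -0.42 in the GSK3β line and by 0.01 in the GSK3α line, a difference of -0.42 (adjusted p = 0.00880). Btg2 changed by -0.39 in the GSK3β line and by -0.15 in the GSK3α line, a difference of -0.24 (adjusted p = 0.0102). Klf10 changed by 0.35 in the GSK3β line and by 0.06 in the GSK3α line, a difference of 0.28 (adjusted p = 0.00480). Both treated GSK3β libraries lay beyond both untreated ones for all 3 genes, which held for 57.3% of all tested genes. All 3 calls ended with limma without the trend, at adjusted p of 0.0844 for Arc, 0.127 for Btg2 and 0.113 for Klf10. Groups of 2 libraries are too small for a search for single libraries that stand apart.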

How the results depend on the processing

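Each group has 2 libraries, and Fosb, Egr1 and Fos rest on 6 to 80 estimated reads a library. Other pseudocounts, no filter, median-ratio scaling and voom weights left the counts of members called within 1.5 times in all 5 comparisons, and median-ratio scaling moved the median of all genes by under 0.1. Without the trend, the calls over all genes were 499 higher and 481 lower in the GSK3β line, 0 and 3 in the GSK3α line, 85 and 48 for the difference, and 1 and 9 for the average. The members called without the trend were then 0 higher and 0 lower for the difference, 0 lower for the average and 1 higher between the untreated lines. A minimum mean of 5 removes Jun and Ier3, which leaves 1 higher and 0 lower between the untreated lines. With the libraries of a comparison alone, 1 member was higher between the untreated lines and 1 lower in the GSK3α line. That setting has no counterpart for the difference or the average.

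Leaving out 1 library at a time, members called lower numbered 0 to 1 in the GSK3α line, higher 0 to 1 and lower 1 to 2 for the difference, higher 1 to 2 between the untreated lines, and higher 0 to 1 and lower 0 to 2 for the average. In the GSK3β line they were 1 higher throughout and 3 to 4 lower. Over all genes the ranges were 437 to 1152 higher and 418 to 1127 lower in the GSK3β line, 3 to 64 and 14 to 127 in the GSK3α line, 220 to 720 and 131 to 619 for the difference, and 10 to 102 and 43 to 135 for the average. Members whose sign turned did not pass in any of these fits. Their log2 values ranged from -0.27 to 0.078 for Fos and -0.13 to 0.042 for Jun in the GSK3β line, and from -0.061 to 0.074 for Arc and -0.18 to 0.070 for Ier3 in the GSK3α line. They ranged from -0.23 to 0.019 for Ier3 in the difference, and from -0.22 to 0.12 for Fos and -0.0043 to 0.081 for Junb between the untreated lines. The causes were not tested.

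Replicate numbers were not shown to pair the samples, since deviations from group means of same-numbered libraries correlated across genes with r of -0.0447 to 0.0271. With a replicate block the average gave 29 genes higher and 73 lower and 1 member lower, as Junb no longer passed (adjusted p = 0.0556). The block changed no other call of a member.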
